A study of Drosophila melanogaster with 6 samples.

Results

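Topologically associating domains (TADs) are stretches of chromosome whose DNA touches itself more often than its surroundings, and a border is the place where one ends and the next begins. The subject here is the set of borders that were found in each of 5 Hi-C libraries of *Drosophila melanogaster* imaginal discs, called constant borders below. They number 457 of 2345 border sites. Each TAD start and end was taken as a border, a TAD end was merged with the start that followed it when they lay within 5 kb, borders of all libraries were clustered by single linkage at 5 kb, and sites with a border from every library were kept. The values that chose these sites are the border positions themselves, so their presence in all libraries is a description and not a result. Gene positions, taken from RefSeq's annotation of Release 6, the assembly known as dm6, are independent of that choice. The pooled lists, the domains between constant borders and the differences between discs are not, since they rest on the same border positions, and they are given as descriptions.

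Eye discs (libraries 1, 2 and 3) and antennal discs (libraries 2 and 3) were dissected by hand from third-instar larvae of genotype yw;+;+, 125 discs to a library. No mutation or treatment separates the groups, and every library carries that same genotype. A disc is an epithelium of many cell types, so a border called in a library is an average over them. The files hold no expression values, so the tissue labels could not be set against marker genes. Antennal disc library 1 was not analysed here. Depth is unknown because the files hold positions only.

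In flies, borders are known to be rich in insulator proteins such as BEAF-32, CP190 and Chromator, and to lie at active promoters of broadly used genes. Genes with complex regulation during development tend to sit within domains whose borders keep enhancers from acting on the neighbours. Those proteins were not measured in these files.

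Eye disc library 1 and antennal disc library 3 stood apart from the others. Both had no TAD on chromosome 4, so no site there could be constant. Without eye disc library 1 the sites found in all remaining libraries rose in number from 457 to 572, and without antennal disc library 3 to 499. Leaving out any of the other 3 gave 465 to 482. Of the 265 sites that exactly 1 library lacked, eye disc library 1 was the missing one at 121 and antennal disc library 3 at 54, against 24 to 37 for each of the others.

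Clustering at 5 kb keeps the borders of a site close together, so their spread within a site is a description and not a result. All 5 libraries had the border at the same position at 87 sites (19.0%), and at 335 sites (73.3%) the outermost borders were at most 5 kb apart. The widest sites allowed by the clustering were 17 whose outermost borders were over 10 kb apart, 3 of them spread over 20 kb. Just outside the threshold, 58 of the 265 sites in 4 libraries had the border of the missing library within 10 kb. The share of border sites that were constant lay between 18.6% on 2R and 21.3% on 2L for the 5 large arms. The density ran from 3.21 sites per Mb on 2R to 3.74 on 3R.

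At 7 of the sites no library had adjoining domains, so these are edges of the called stretches and not borders between 2 TADs. The outer ends of the calls on 3L, 3R and X make up 3 of them. The other 4 flank a pair of gaps that every library left between TADs. One gap, from 19735 to 19760 kb on 2R in all 5 libraries, falls within the tandem array of 5S ribosomal RNA genes (100 annotated copies, 19729562 to 19766278). The other begins at 12470 kb in eye disc library 1 and antennal disc library 3 and at 12475 kb in the other 3 libraries, ends at 12495 kb on 3R in all of them, and lies between *lncRNA:alphagamma-element:CR32865* and the heat shock gene *Hsp70Bbb*. Both stretches hold near-identical repeats, to which short reads are hard to assign, and the part of that in the gaps was not tested. The mean number of gene ends, its ratio to single-library sites and the share of all genes are therefore also given for the other 450 sites. The remaining results on gene ends include the edges.

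The authors' lists called on pooled replicates held most constant borders. A pooled border lay within 5 kb at 446 of the 457 sites in the eye disc (97.6%) and at 441 in the antennal disc (96.5%), and both lists had one at 432. For sites found in a single library the shares were 11.5% and 14%, and for those in 4 libraries 86.0% and 85.3%. The pooled lists contain the reads of the same libraries, so they are no independent replicate. The pooled antennal list is labelled as made from all replicates and may therefore also hold reads of antennal disc library 1, which was not analysed here.

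**Figure D1:**
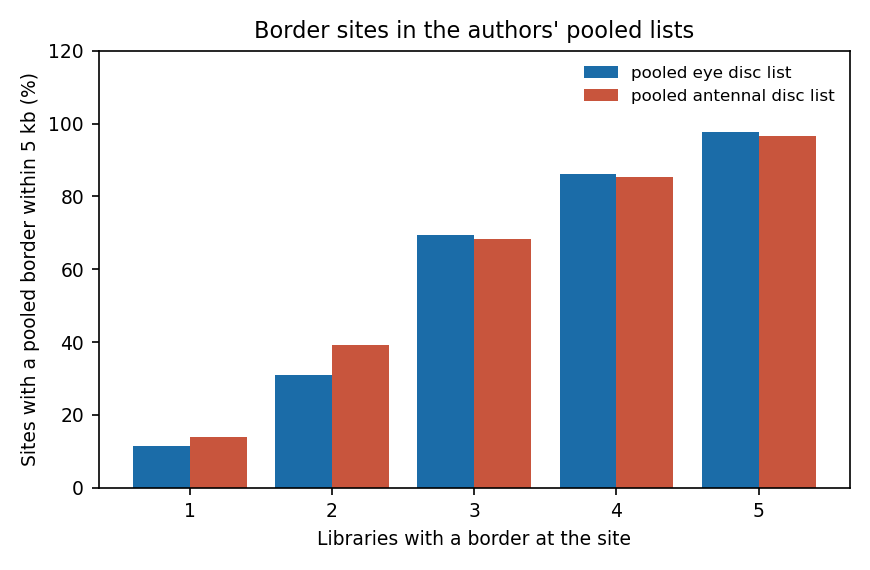
Share of border sites (y axis, in percent) with a border of the authors' pooled eye (blue) or antennal (red) list within 5 kb, by the number of libraries that hold the site (x axis). The shares run from 11.5% and 14% for sites in 1 library to 97.6% and 96.5% for those in all 5.

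A few constant borders had no counterpart in a pooled list. The pooled eye list had no border nearer than 95 kb to the site on 3R beside *CG31041* (29590 kb). The pooled antennal list came no nearer than 128.5 kb to the site nearest *asRNA:CR45164* on 3L, 108 kb to that nearest *CG6959* on 3R and 35 kb to that nearest *CG11317* on 3R. Its nearest border to the site near the phospholipid enzyme gene *Pisd* on 3R was 23 kb away, and to that at *CG14668* 17 kb. The remaining sites that a pooled list lacked had a pooled border within 12 kb, among them *bab1* in the eye list (9 kb) and *pnt* in the antennal list (10 kb).

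Genes crowded at constant borders. Since the annotation table used gives no strand, both ends of a gene stood for a possible transcription start, and all ends within 5 kb of a site's mean position were counted. Constant borders had a mean of 5.10 gene ends (SD over sites 4.90), against 2.34 at sites held by 1 library (SD 3.17), 2.87 at sites in 2 libraries, 3.34 in 3 and 4.14 in 4. The level was thus higher with each added library, and the constant sites had 2.18 times the level of single-library sites. Without the 7 edges of calls the mean was 4.91 and the ratio 2.10. With the edges kept, the ratio was 1.79 without antennal disc library 3 and 2.22 without eye disc library 1. A gene end was missing from the window at 39 constant borders (8.53%) and at 44.9% of single-library sites. Sites are not replicates of a condition, so these are counts with no test.

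The same contrast was seen within each library when its own constant borders were set beside its other borders. The mean number of gene ends was 4.92 against 3.47 in eye disc library 1, 4.96 against 3.13 in eye disc library 2 and 4.71 against 2.57 in eye disc library 3. In antennal disc library 2 it was 5.29 against 3.19, and in antennal disc library 3 it was 5.0 against 3.30. The ratio was 1.60 ± 0.157 (SD, n = 5), above 1 in 5 of 5 libraries, with eye disc library 1 lowest at 1.42 and eye disc library 3 highest at 1.83. The constant borders are nearly the same places in every library, so these 5 values are not independent and no test was run.

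The crowding was local. In windows of 2.5 kb to either side, gene ends numbered 2.65 at constant borders, 2.29 and 2.32 at 5 kb to the left and right, and 1.30 to 1.68 at 30 to 50 kb, which makes the centre 1.80 times the surroundings. Around single-library sites the level at the centre was 1.14 against 0.931 to 1.20 at 30 to 50 kb, a ratio of 1.07. The surroundings of constant borders were thus richer in gene ends too.

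**Figure D2:**
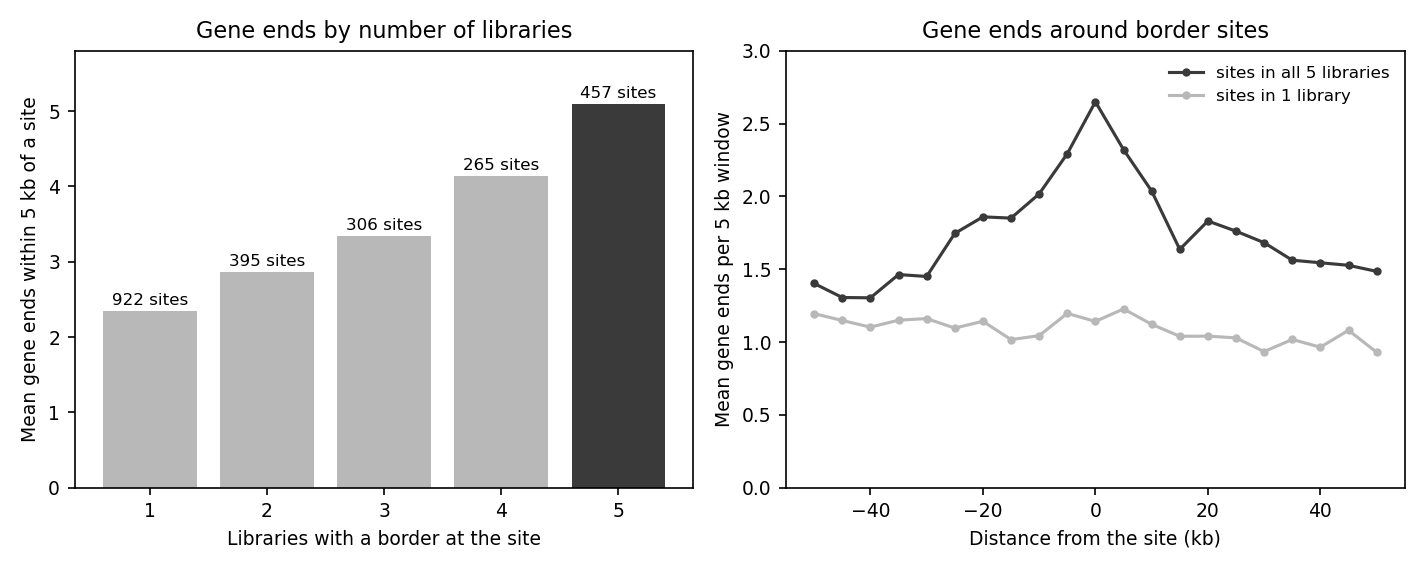
Left, mean number of gene ends within 5 kb of a border site (y axis) by the number of libraries holding the site (x axis), from 2.34 for 1 library to 5.10 for all 5. Right, mean gene ends per window of 2.5 kb to either side (y axis) against distance from the site in kb (x axis), with a peak of 2.65 at constant borders (dark) and a nearly level line at sites in 1 library (grey).

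Most constant borders ran through a gene by position: 346 of 457 (75.7%) fell between the annotated ends of at least 1 gene, against 63.0% of sites in 1 library. Few lay deep in one. Only 21 (4.60%) were inside a gene with no gene end of any kind within 5 kb, against 25.5% of single-library sites.

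In all, 1493 of 17684 genes, 8.44%, had an end within 5 kb of a constant border, and 8.71% of protein-coding genes did (1213 of 13922). These 1493 genes lay at 418 of the sites. Without the edges of calls 1430 genes (8.09%) had such an end. The 1213 coding genes at constant borders had a median length of 2.67 kb (quartiles 1.38 and 8.05 kb). Other coding genes had a median of 2.12 kb (1.16 and 4.78 kb). The mean number of annotated transcripts was 2.63 against 2.17. Long non-coding RNA genes reached 4.54% (89 of 1959), antisense RNA genes 8.15% (41 of 503) and pseudogenes 6.12% (15 of 245).

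The sites at which every library had its border at the same position, ranked by gene ends, show which genes these are. Both edges of the 5S ribosomal RNA gap headed the list with 54 gene ends each. The next, at 14625 kb on 2R, had 26, owing to *Uhg5*, a host transcript whose introns carry small nucleolar RNAs, and 11 such RNAs. At 26060 kb on 3R there were 15 ends, with *Trmt61* (a tRNA methyltransferase) 0.505 kb and the ribosomal protein gene *RpL34a* 0.733 kb from the border, and *CG14551* at 1.27 kb. The site at 8305 kb on 3R had 12, from *Sgt1* (a co-chaperone, 0.274 kb), *nac* (0.977 kb) and the mitochondrial ribosomal gene *mRpL1* (2.23 kb). On 3L at 17425 kb, 11 ends belonged to genes including *Sec3* (a subunit of the exocyst, 0.217 kb), *COX7B* (a subunit of cytochrome c oxidase, 0.476 kb) and *Polr3G* (a subunit of RNA polymerase III, 1.28 kb). The remaining 4 sites lay at *l(2)34Fd* and *Rab14* (a vesicle GTPase, 0.144 kb) at 14355 kb on 2L, at *CG18547* and *CG12224* at 11980 kb on 3R, at *rumi* (a Notch glucosyltransferase, 0.597 kb) and *Usp12-46* (a deubiquitinase) at 22750 kb on 3R, and at *CG15155* and *CG17681* at 18155 kb on 2L.

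Genes of the basic cell machinery were present at constant borders in shares between 3.13% and 15.9%, to be read against the 8.44% of all genes. Distances here and below run to a site's mean position over the libraries, and a library's own border can lie farther from the gene. Of 93 cytosolic ribosomal protein genes 13 lay there, each at a site of its own (14%). Nearest to the mean were *RpS21* (0.029 kb), *RpL8* (0.117 kb), *RpLP2* (0.268 kb) and *RpL34a*. The libraries' own borders lay 1.07 or 2.97 kb from *RpS21*, 1.12 to 6.12 kb from *RpL8* and 1.04 to 3.96 kb from *eIF4EHP*. Of 44 translation initiation factor genes 7 did (15.9%), among them *eIF4EHP*, a cap-binding repressor (0.040 kb), *eIF4H1* (0.336 kb), and the RNA helicase gene *eIF4A* with *eIF4G2* (0.763 kb each). Proteasome genes had 5 of 48 (10.4%), led by *Prosalpha3* (0.118 kb), *Rpn13* (0.596 kb), *Rpn9* (1.37 kb) and *Rpn6* (3.17 kb), and respiratory chain and ATP synthase genes 10 of 91 (11%), led by *COX7B*, *Cyt-c-p* (0.644 kb), *ND-13B* (0.892 kb) and *ND-51L1* (1.59 kb).

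Mitochondrial ribosomal genes had 7 of 73 (9.59%), with *mRpL54* at 0.212 kb, *mRpL14* at 0.996 kb, *mRpL19* at 2.11 kb and *mRpL1*. Spliceosome genes had 3 of 26 (11.5%): *SmD1* (0.611 kb), *snRNP-U1-70K* (1.29 kb) and *Prp16* (4.64 kb). General transcription genes had 5 of 62 (8.06%), led by the Mediator subunit genes *MED14* (0.239 kb), *MED18* (1.11 kb), *MED11* and *MED25*. Among aminoacyl-tRNA synthetase genes *AsnRS* (1.47 kb) was the 1 of 32 (3.13%). Without eye disc library 1 the general transcription genes came to 8 (12.9%) and the synthetase genes to 2 (6.25%), beside 10.2% of all genes.

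The small RNA genes that the machinery uses formed clusters at few sites. The 25 of 295 tRNA genes at constant borders (8.47%) shared 11 sites, and 7 of them stood together at the border inside *EcR* at 6158 kb on 2R. The 28 of 274 small nucleolar RNA genes (10.2%) shared 8 sites. The 5 small nuclear RNA genes of 32 (15.6%) were all at the site with mean position 19815 kb on 2L. There *snRNA:U2:38ABa* lay 0.613 kb and *snRNA:U5:38ABb* 1.41 kb from the mean on one side, and *snRNA:U2:38ABb*, *snRNA:U5:38ABa* and *snRNA:U4:38AB* on the other. The border was at 19810 kb in eye disc library 2 and at 19820 kb in antennal disc library 2. In these libraries all 5 genes lay on one side of it, to the right and to the left respectively. The 18 of 260 microRNA genes (6.92%) spread over 15 sites. Of the genes typed as ribosomal RNA, 53 of 98 were within 5 kb, all of them at the edges of the 5S gap.

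**Figure D3:**
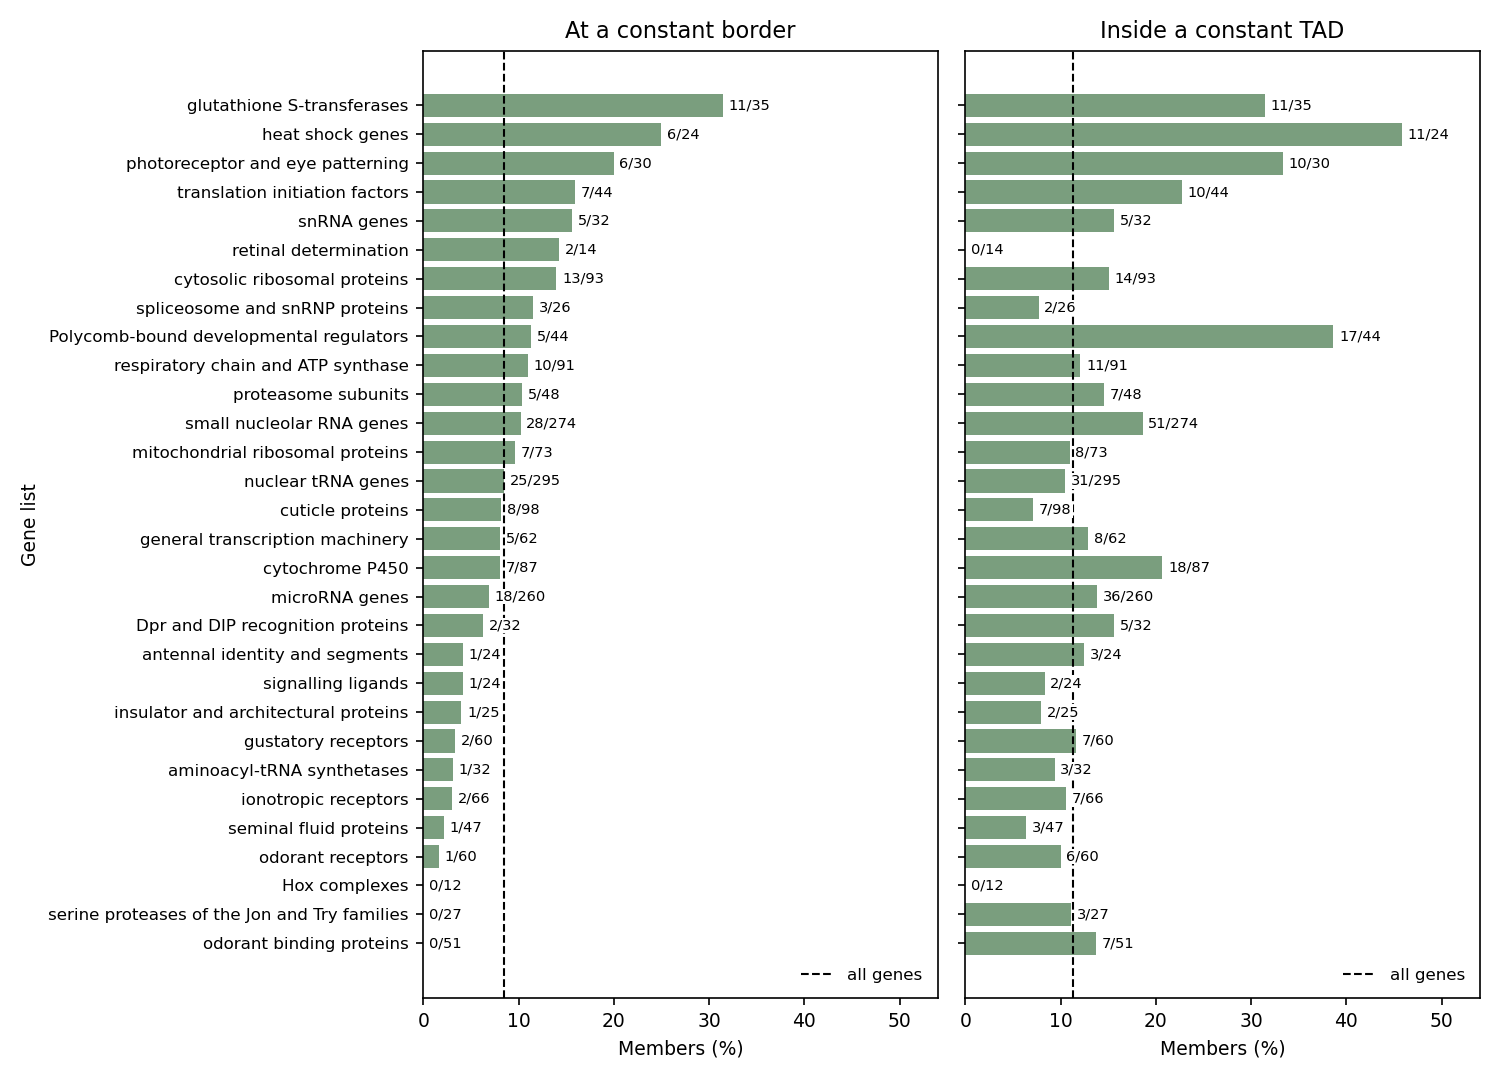
Percentage of each gene list's members (x axes) with an end within 5 kb of a constant border (left) or wholly between the mean border positions of a constant TAD (right). The number of members stands beside each bar. Dashed lines give all genes, 8.44% and 11.3%; glutathione S-transferases (31.4%) and heat shock genes (25%) stand highest on the left, heat shock genes (45.8%) and Polycomb-bound regulators (38.6%) on the right.

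Several tandem gene families had a constant border running through them. Members of such a family share a site, so their counts are not independent. Glutathione S-transferase genes, whose products conjugate toxins, had 11 of 35 members at 2 sites (31.4%). In the GstD cluster on 3R the border was at 12380 kb in 4 libraries and at 12375 kb in antennal disc library 3. Its mean position fell within *GstD7*, with *GstD1* to *GstD6*, *GstD9* and *GstD10* to the left and *GstD8* and *GstD11* to the right. No library had its own border inside *GstD7*. The position 12380 kb lies between *GstD7* and *GstD8*, and 12375 kb between *GstD4* and *GstD5*. In the GstE cluster on 2R the positions were 18415, 18410 and 18405 kb in eye disc libraries 1, 2 and 3 and 18410 kb in both antennal libraries, and the mean was 0.165 kb past *GstE9*, with 10 members on its left and *GstE11* on its right. In eye disc library 3 the border lay inside *GstE5*, with *GstE6* to *GstE9* on its right.

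Heat shock genes had 6 of 24 members at 3 sites (25%). On 3L, the small heat shock protein cluster was cut at a mean position of 9378 kb, at *Hsp67Ba* (0.199 kb). *Hsp67Bc*, *Hsp22* and *Hsp26* (0.573 kb) lay to the left of that mean and *Hsp23* and *Hsp27* to the right. No library had its own border inside *Hsp67Ba*. In eye disc library 1 and antennal disc library 2 the border lay 0.036 kb past *Hsp22*, with *Hsp26* and *Hsp67Ba* on its right. In the other libraries it lay 0.466 kb past *Hsp67Ba*. *Hsp83*, which encodes the Hsp90 chaperone (2.03 kb), and *Hsp68* (2.08 kb) had sites of their own. The *Cyp6a* cluster of cytochrome P450 genes on 2R was split at a mean position of 14876 kb. That mean fell inside *Cyp6a23* (0.172 kb) and beside *Cyp6a17* (0.261 kb), with *Cyp6a19* at 1.79 kb. No library had its own border inside *Cyp6a23*. The border lay inside *Cyp6a17*, 0.739 kb from its nearer end, in every library but antennal disc library 2. There it lay inside *Cyp6a9*, 0.645 kb from that gene's nearer end. All P450 genes came to 7 of 87 (8.05%). By contrast, the constant border beside the Lcp65A cluster of larval cuticle genes on 3L (6130 kb) had all 19 cuticle genes within 100 kb on one side, beginning with *Lcp65Ag3* (0.385 kb) and *Cpr65Au* (1.24 kb). Cuticle genes came to 8 of 98 (8.16%).

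Among genes of smell and taste, constant borders had 1 of 60 odorant receptor genes (1.67%, *Or9a* at 0.676 kb), 2 of 60 gustatory receptor genes (3.33%, *Gr47b* at 0.595 kb and *Gr89a* at 2.82 kb), 2 of 66 ionotropic receptor genes (3.03%, *Ir7g* and *Ir10a*) and none of 51 odorant binding protein genes. They also had 1 of 47 seminal fluid genes (2.13%, *Sfp84E* at 2.59 kb), 2 of 32 dpr and DIP recognition genes (6.25%, *dpr2* at 0.153 kb and *dpr16* at 4.91 kb) and none of the 27 serine protease genes listed. Several of these small counts turned on 1 library. Ionotropic receptor genes came to 5 (7.58%, beside 8.58% of all genes) without antennal disc library 2, to 1 without eye disc library 3 and to 0 without antennal disc library 3. Odorant receptor genes came to 3 without eye disc library 3 and also without antennal disc library 2. Odorant binding protein genes came to 2 without eye disc library 1, and dpr and DIP genes to 1 without eye disc library 3. Of all 30 lists, 14 had a share above that of all genes and 16 a share below it.

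Photoreceptor and eye patterning genes had 6 of 30 at constant borders (20%, beside 8.44% of all genes), each at its own site. The list was chosen with earlier results of these data known, and its entries *h*, *Dl*, *yan* and *sal* had no match in the annotation. *spi*, which encodes the main ligand of the EGF receptor in photoreceptor recruitment, had a border inside it, 2.31 kb from its nearer end. That border was at 19575 kb on 2L in all 5 libraries. *pnt*, an ETS factor downstream of that receptor, had an end 1.17 kb from one at 23345, 23350 and 23340 kb in eye disc libraries 1, 2 and 3 and at 23350 and 23340 kb in antennal disc libraries 2 and 3. Positions 23340 and 23345 kb fall inside *pnt*, and 23350 kb falls past its end. *phyl* and *sina*, whose products act together to degrade a repressor of neural fate, lay 0.335 kb and 1.29 kb from borders, the latter at 16860 kb on 3L in every library. The homeobox gene *ro* (1.23 kb) and *emc* (0.508 kb), an inhibitor of proneural proteins, complete the group. The list's median distance from a constant border was 20.9 kb, beside 61.0 kb for all genes.

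Of the 14 retinal determination genes, 2 lay at constant borders: *toe*, a Pax gene (2.51 kb), and *nmo*, which encodes the Nemo kinase (3.05 kb). The head regulators lay farther away. *eya*, a phosphatase and co-activator of retinal fate, was 23.0 kb from the nearest constant border but had another border within 2.55 kb in eye disc library 1 and antennal disc libraries 2 and 3. *ato*, the proneural gene of the first photoreceptor, was 25.7 kb away, *so* 96.1 kb and *dac* 236 kb. Each library nevertheless had some border of its own within 19.0 kb of *dac*. *ey* and *toy* lie on chromosome 4, which had no constant border.

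Of the 24 antennal identity genes only *bab1*, a BTB factor that patterns distal limb segments, qualified (4.63 kb). *dan* lay 9.19 kb from one and *danr* 62.1 kb. *al* was 17.1 kb away, *ss*, which sets antennal identity, 24.3 kb, *hth* 41.4 kb, *salm* 47.4 kb, *Dll* 131 kb and *ct* 212 kb. None of the 12 Hox complex genes had an end at a constant border, at a median distance of 133 kb. Signalling ligand genes had 1 of 24 (*spi*), at a median of 110 kb. Leaving out eye disc library 3 gave 1 Hox gene and 2 ligand genes, and leaving out antennal disc library 3 gave 1 Hox gene. The antennal list came to 0 when either antennal library or eye disc library 2 was left out. Among 44 genes listed as Polycomb-bound regulators 5 did (11.4%): *tin*, *pnr*, *otp*, *Doc3* and *pdm2* at 1.02 to 4.69 kb. Of 25 insulator and architectural protein genes, *mod(mdg4)* alone did (2.60 kb). It shared with *tin* a border at 21380 kb on 3R in every library, a position inside *tin*. The insulator count was 4 (16%, beside 10.2% of all genes) without eye disc library 1, 3 (12%) without antennal disc library 2 and 2 (8%) without any one of the others.

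Some large genes held a constant border well inside them, more than 5 kb from both their ends. There were 47 such genes of 17684, at 45 sites, 9 of them at least 100 kb long out of 89 genes of that length. Longer genes have more positions that far from both ends, and no matching count is given for other border sites. The longest was *kirre* on X (394 kb), which encodes an immunoglobulin adhesion protein of myoblast fusion. Its border stood at 2950 kb in eye disc library 1 and at 2955 kb in the other 4, and no library had another border within 150 kb. The mean position lay inside the related gene *rst*, needed for cell sorting in the pupal eye, 3.60 kb from one end. The border of eye disc library 1 lay just outside *rst* and those of the other 4 libraries inside it. The next were *heph* (169 kb), where the site is the outer end of the calls on 3R, *sick* (162 kb), whose border coincides with the small nuclear RNA cluster, *Gprk1* (149 kb) and *CG40006* (134 kb).

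The remaining examples were chosen after their values were seen. *Antp*, the Hox gene of the second thoracic segment, was cut 17.7 kb from its lower-coordinate end, with the border at 6910 kb in eye disc library 1 and at 6915 kb in the other 4 libraries. No gene end lay within 5 kb. Both antennal libraries had a further border 94 and 99 kb below it, and no eye library had one there. In *EcR*, the gene of the ecdysone receptor, the positions were 6165, 6155 and 6155 kb in eye disc libraries 1 to 3 and 6155 and 6160 kb in antennal disc libraries 2 and 3. In *Eip75B*, a nuclear receptor gene, the border was at 17965 kb in 4 libraries and at 17970 kb in antennal disc library 3. In *Eip74EF*, an ETS factor gene, it was at 17595 kb in eye disc library 1 and at 17600 kb in the rest.

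**Figure D4:**
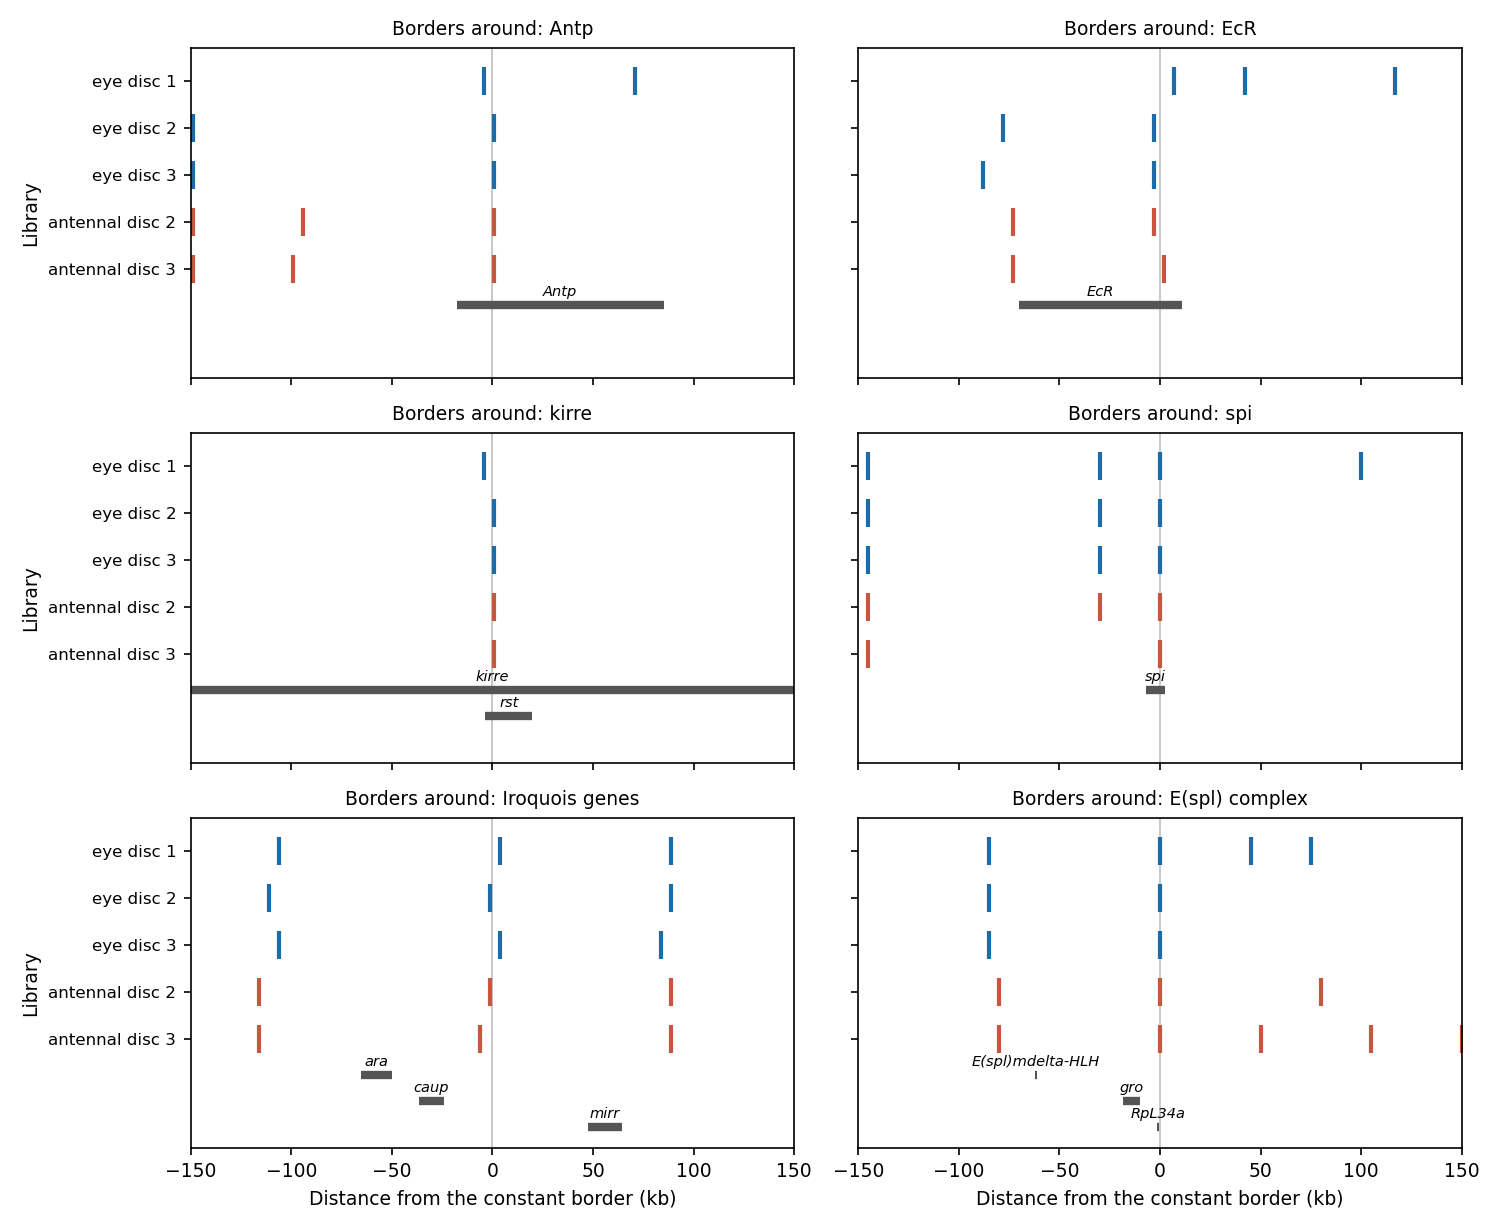
Borders called in each library (rows; ticks, blue for eye and red for antennal discs) within 150 kb of a constant border (0 on the x axis, in kb) at 6 loci, with gene extents as grey bars below. A tick stands near 0 in all 5 libraries of each panel, while borders farther out differ between libraries at *Antp*, *EcR*, *spi* and the E(spl) complex.

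Constant borders also enclosed whole domains that no library divided. In 134 of the 452 intervals between neighbouring constant borders, every library had a single TAD and no other border. These constant TADs were 30 to 259 kb wide with a median of 95 kb, covered 13.4 Mb and held a median of 12.5 genes. Their number depended on eye disc library 1, without which it was 228. Genes lying wholly between the mean positions of a constant TAD's borders came to 1990, or 11.3% of all genes. Such genes are counted as inside it here and below, although a library's own border can cut the gene or leave it outside. The longest interval without a constant border ran for 2231 kb on X, from 20623 to 22854 kb, and there the libraries had 12 to 17 borders each.

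**Figure D5:**
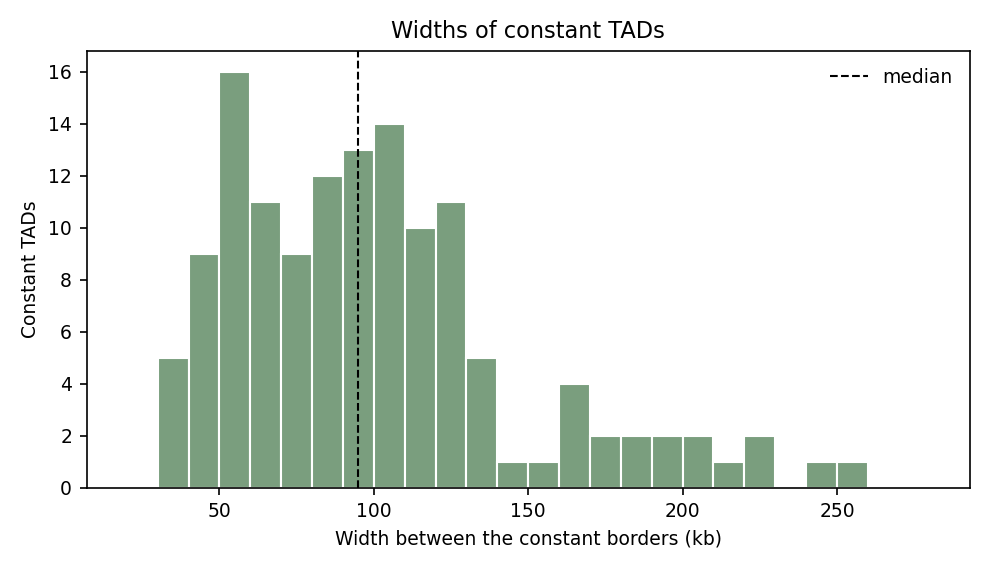
Number of constant TADs (y axis) by the width between their constant borders in kb (x axis, bars of 10 kb). Widths run from 30 to 259 kb, with the median of 95 kb dashed.

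The widest constant TAD, on 2R from 13961 to 14220 kb, measured 255 kb in antennal disc library 2 and 260 kb in the other 4. It held 34 genes, among them *Prosap* (a synaptic scaffold), *mam* (the co-activator of Notch), *Sdb* and *Sox15*. The second, 248 kb on 2L, held *Ddr* and *PDZ-GEF*. The third, 226 kb on X, held *su(w[a])*, and the fourth, 220 kb on 3L, held the planar polarity receptor gene *fz*. The fifth, 212 kb on 2L, contained both *salm* and *salr*, zinc finger genes of photoreceptor and antennal development, and measured 205, 220 and 205 kb in the eye libraries and 215 kb in both antennal ones. The 5 narrowest were 30 to 38 kb wide and held 2 to 10 genes. By mean border positions, that of 30 kb held *ND-13B* and that of 33 kb only *cal1* (a centromere assembly factor) and the kinase gene *GckIII*. That of 38 kb held only the kinase gene *msn* and *RpL8*. In antennal disc library 3 *ND-13B* lay beyond the right border of its TAD. *RpL8* did so in eye disc library 3 and antennal disc library 2.

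The lists of developmental genes differed in how many members lay in constant TADs. Of the 44 Polycomb-bound regulators 17 did (38.6%), in 9 TADs, beside 11.3% of all genes. Antennal identity genes had 3 of 24 (12.5%) and signalling ligand genes 2 of 24 (8.33%). Neighbouring paralogues often shared a TAD and so do not count independently. *slp1* and *slp2* shared one of 103 kb, the T-box genes *Doc1*, *Doc2* and *Doc3* one of 56 kb, the homeobox genes *otp*, *Rx* and *hbn* one of 115 kb, and *bap*, *lbl* and *lbe* one that was 140 kb wide in every library. In eye disc library 1 the border lay inside *otp*, 1.38 kb from its nearer end. The Iroquois homeobox genes, which pattern the dorsal eye, were divided. *ara* and *caup* lay in a TAD of 111 kb and *mirr* in the next of 88 kb, on either side of a border at 12650, 12645 and 12650 kb in the eye libraries and 12645 and 12640 kb in the antennal ones.

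Of the 30 photoreceptor and eye patterning genes 10 lay in constant TADs (33.3%), in 8 TADs. Besides the spalt and Iroquois genes these were *gl*, a zinc finger gene of photoreceptor fate (84 kb wide), *sca* (103 kb), *svp*, an orphan nuclear receptor gene (159 kb, shared with part of the GstD cluster), *phyl* (54 kb) and *E(spl)mdelta-HLH*. In eye disc library 1 and antennal disc library 3 the border lay inside *phyl*, 2.34 kb from its nearer end, so there the TAD did not hold the whole gene. All 11 E(spl) genes in the annotation, the Notch targets of which 7 encode bHLH repressors and 4 Bearded-family proteins, lay in 1 constant TAD on 3R with the co-repressor gene *gro*. It measured 85 kb in all 3 eye libraries and 80 kb in both antennal ones, and its right border was the one beside *RpL34a* and *Trmt61*. *ss* lay in a TAD of 85 kb that measured 80, 85 and 85 kb in the eye discs and 90 and 85 kb in the antennal discs. None of the 14 retinal determination genes and none of the 12 Hox genes lay in a constant TAD.

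Heat shock genes had 11 of 24 members in constant TADs (45.8%). Of these, 3 were *Hsp70* copies in the TAD to the right of the repeat gap on 3R, and *Hsp70Ba* lay in the TAD to its left. Each of those TADs meets the gap at an edge of the called stretches and not at a border between 2 TADs. P450 genes had 18 of 87 (20.7%), glutathione S-transferase genes 11 of 35 (31.4%), translation initiation factor genes 10 of 44 (22.7%) and small nucleolar RNA genes 51 of 274 (18.6%). Among the genes so counted, *Cyp6a17* was cut by the border in every library but antennal disc library 2. In antennal disc library 3 *GstD5* and *GstD6* lay to the right of the border, outside the TAD they are counted in. Cytosolic ribosomal genes had 14 of 93 (15.1%), in 14 different TADs. Chemoreceptor shares were near that of all genes, with 6 of 60 odorant (10%), 7 of 60 gustatory (11.7%) and 7 of 66 ionotropic receptor genes (10.6%).

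The discs were then compared over libraries at these borders. Constant borders made up 37.9%, 39.2% and 40.0% of all borders in eye disc libraries 1 to 3 and 37.6% and 36.7% in antennal disc libraries 2 and 3. The eye mean was 39.0% ± 1.04 (SD, n = 3) and the antennal 37.1% ± 0.640 (n = 2). The share restates how many other borders a library has, since the constant ones number 457 or 458 in each by the rule, so no test is given.

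TADs beside constant borders had median widths of 95, 105 and 110 kb in the eye libraries and 105 and 95 kb in the antennal ones. The share of constant sites at which TADs adjoin was 97.6% to 98.5% in every library. The mean offset of a library's border from the site's mean position was between −0.0930 and 0.0656 kb, a value that centring on the same 5 libraries keeps near 0. In each of these 3 measures the ranges of the discs overlapped.

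At single sites, every eye border had a lower coordinate than every antennal border at 16 constant borders, 3.5% of them, and a higher one at 13, or 2.84%. The discs overlapped or met at the other 428. The largest such offsets were 12.5 kb at *CG43277* on 2R, where the eye borders were higher, 10 kb at *bab1* on 3L, also higher in the eye disc, and −9.17 kb (eye minus antennal) at *Mfe2* on X. With bins of 5 kb these are shifts of 1 to 3 bins, and they were not tested.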

How the data were processed

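Hi-C was made on eye and antennal discs, and the submitters' processing notes name Bowtie2 2.3.4.2 and the build dm6. The caller was not given in the sources used here, nor were its bins. Values as deposited are TAD starts and ends in bp (no score, signal or depth), 1 file per library and 1 per tissue for pooled replicates, per the labels and file names. All were multiples of 5000, so 5 kb was taken as the bin, and coordinates are edges between bases. Without depths, counting error stays unquantified. Precision rests on 3 eye and 2 antennal libraries, and whether these came from separate collections is not stated beyond their being replicates, so SDs measure only the spread between libraries.

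Sites and distances used the mean position over libraries. Genes came from RefSeq's table for Release 6 (17684 genes on 6 arms), which has no strand, so a planned count from transcription starts was not made. No sequence was given, so a planned count of promoter motifs was not made either. A planned window of 0 kb was replaced by 2.5 kb, since sites have unequal spans. The 30 gene lists were matched by symbol or symbol prefix, and 12 entries without a match are not analysed here. Members and lists were chosen with earlier results of these data known. Genes named follow a rule: the 10 same-position sites with most gene ends, up to 4 nearest members of each list, the 5 longest genes holding a border, the 5 widest and narrowest constant TADs, sites lacking in a pooled list (farthest first) and 15 eye and antennal genes. Others named in clusters or TADs were chosen after their values were seen. Planned permutation tests between tissues are not reported, because they rest on the border positions that chose the sites. Computations were tested on simulated data. Alternatives covered the tolerance, window, border definition, arms, gene set, call edges and each library. Python 3.11.15, numpy 2.4.6, pandas 2.3.3 and matplotlib 3.10.9 were used.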

Additional observations from a re-analysis of the deposited data

How the results depend on the processing

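Alternatives kept the constant borders between 379 (chromosomes 2 and 3 only) and 572 in number, except that requiring the same position left 87. Those without the edges of calls, with a window of 2.5 kb and for the pooled lists without each library were chosen after seeing the data. Leaving out 1 library at a time gave 465 to 572 sites, 1518 to 1800 genes and 13 to 15 lists above the share of all genes. Genes at constant borders numbered 2487 with a window of 10 kb, 868 with 2.5 kb and 333 with the same position required. The gene-end ratio to single-library sites was 1.95 with a window of 10 kb, 2.01 with the same position required, 1.86 inside the stretch that every library covers, and 1.79 to 2.22 without 1 library. Constant TADs numbered 10 with the same position required and 145 to 228 without 1 library. Of the 30 lists, 22 (same position) to 29 (tolerance 10 kb) stayed on their side of the share of all genes. A pooled border lay at 0 kb from 26.7% of sites in each tissue and within 10 kb of 99.6% (eye) and 98.9% (antennal). Without 1 library the shares within 5 kb were 94.2% to 98.0% and 92.2% to 97.3%.

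Of the tissue differences (eye minus antennal), that in the share of constant borders kept its sign but was 0.359 points with the same position required, against 1.91, and 1.5 to 3.04 points without 1 library. The difference in TAD width was −1.67 kb with the same position required and −3.33 to 6.67 kb without 1 library. That in adjoining TADs was 0.575 points with the same position required and −0.279 to 0.522 points without 1 library. The offset was 0.0325 kb at a tolerance of 10 kb and −0.122 to 0.0503 kb without 1 library. The cause was not tested.

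Replicate numbers 2 and 3 occur in both tissues. Deviations of border presence from the tissue mean correlated at 0.0775 for number 2 and −0.0433 for number 3. With 2 antennal libraries those deviations mirror each other, so the check cannot show whether a number marks a shared batch, and the labels do not say so. With that pairing as a block the differences were 2.46 points in share, 7.5 kb in width, 0.219 points in adjoining TADs and 0.0191 kb in offset, the last pair opposite in sign to the unpaired values.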
